A study of Mus musculus with 6 samples.

Results

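The genes described here run glucose uptake, glycolysis, lactate handling and glycogen turnover in HL-1, a cell line grown from mouse atrial muscle cells, measured as messenger RNA after the circular RNA Circ-INSR was targeted. They are 37 genes taken by symbol from a list made up of glucose transporters, glycolytic enzymes, lactate dehydrogenases, lactate carriers and glycogen enzymes, out of 38087 gene IDs in the count files. All 37 symbols were found. The rule takes them by name and sets no threshold on their values, but the list was drawn up with earlier results of these data known. HL-1 cells received 100 nM of a small interfering RNA (siRNA) against Circ-INSR, a circular RNA made from the insulin receptor gene Insr, or a control siRNA whose dose the labels do not give, with 3 libraries in each of the 2 groups. No genotype other than this knockdown is stated, and HL-1 is 1 cell line, so the libraries do not sample different animals. Nothing in the labels tells whether the 3 libraries of a group stem from different cultures, and p-values then cover only the spread between these libraries, which may be technical. RNA was selected by its poly(A) tail before sequencing, so the circular RNA itself is not measured here.

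Glucose enters heart cells through facilitative transporters of the GLUT family, is phosphorylated by hexokinase and is then split and oxidised by the glycolytic enzymes to pyruvate. Pyruvate is either passed to the mitochondria or reduced to lactate, which crosses the membrane through monocarboxylate transporters (MCT). In heart muscle, insulin moves the transporter GLUT4 to the cell surface and acts on phosphofructokinase-2 (PFKFB) enzymes, whose product, fructose 2,6-bisphosphate, activates phosphofructokinase-1, a rate-setting step. Glucose that is not burned can be stored as glycogen by glycogenin, glycogen synthase and the branching enzyme, and released again by glycogen phosphorylase. Many of these genes are known targets of the hypoxia-inducible factors (HIF), which bind the core word RCGTG, where the first letter stands for A or G, and of factors that bind the E-box CACGTG.

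Promoter sequences are shown first, because the core word ACGTG was common among the members and stands in promoters of genes that moved in opposite directions. RefSeq windows of 300 bases (250 before and 50 after a transcript start, build GRCm38.p6) were available for 35 of the 37 genes, and both strands were searched. ACGTG, which reads CACGT on the other strand and also lies inside CACGTG, was present for 20 of 35 members (57.1%), against 21.8% of the 27025 genes with a window. The other letter form, GCGTG, was present for 23 of 35 members (65.7%), against 35.2% of all genes. CACGTG was found for 6 members (17.1%), against 8.09% of all genes, and the TATA box word TATAAA for 3 members (8.57%), against 15.7%. A gene with several windows had more chances of a match. Per window, ACGTG was present in 45.3% of 53 member windows, against 19.6% of 32851 windows, and GCGTG in 54.7%, against 32.4%. CACGTG was present in 11.3%, against 7.15%, and TATAAA in 5.66%, against 13.6%. The 27025 genes were not limited to those tested for expression. Member windows had a median GC content of 59%, against 52.7% over all windows, and the part of base composition in these shares was not tested. The 12 stretches of 30 bases that follow hold ACGTG in the promoters of 12 members that passed the expression test described next. Each is written 5′ to 3′ on the strand where the core reads ACGTG, and the capitals mark that core.
Slc2a1 (chr4:119108697-119108726, + strand): gtcccgccccggACGTGctccccaggcccc
Pfkm (chr15:98092593-98092622, - strand): ttcgtataccctaACGTGatctttctggat
Pfkfb2 (chr1:130715825-130715854, - strand): gccaagcgccccACGTGactcgccccaacc
Pfkfb3 (chr2:11502125-11502154, - strand): acccttctctccACGTGaaagggggctggg
Aldoa (chr7:126799363-126799392, + strand): ccgccccgctaggACGTGactcgagccaca
Aldoc (chr11:78323088-78323117, - strand): ttgccgcagagctACGTGactccctggggg
Gapdh (chr6:125165724-125165753, + strand): gctACGTGcacccgtaaagccgcgagtagc
Pgam1 (chr19:41911745-41911774, + strand): cgctccttgcttACGTGcgctccgtgactg
Pkm (chr9:59657223-59657252, - strand): gaggagtccgcggACGTGactagaatgcgg
Slc16a1 (chr3:104638672-104638701, + strand): tggcgagctgcgACGTGactggtcggtcgt
Slc16a3 (chr11:120949041-120949070, + strand): cgtgcgcgggggACGTGccgcgcgacggat
Pygm (chr19:6384335-6384364, - strand): cacgcctccccggACGTGggagggtcttgg
In the transcription direction of each gene, the first base of the core lay between 126 bases before the start (Aldoa) and 43 bases after it (Gapdh). A match is a description of the letters and not a shown binding site. Among members with a window, ACGTG was present for 8 of the 12 that were higher after Circ-INSR siRNA and for 4 of the 9 that were lower. It was present for 7 of the 13 that did not pass the test. GCGTG, the other form of the HIF core, was present for 8 of the 12 higher, 7 of the 9 lower and 7 of the 13 uncalled members. Both forms were also present for Pygl, which was not tested. Slc2a3 and Slc2a4 had no window.

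Levels are given as CPM (counts scaled to a common library total), adjusted between libraries by the trimmed mean of M values, and groups were compared with edgeR's quasi-likelihood F-test over all 16666 genes with enough counts. All adjusted p-values come from that test, with a threshold of 0.05, and fold changes are Circ-INSR siRNA over control siRNA on the log2 scale. Of the 37 genes, 36 passed the filter on low counts; Pygl, the liver glycogen phosphorylase, did not. After Circ-INSR siRNA 23 of the 36 changed (63.9%), against 57.0% of all genes tested. Of these, 14 were higher (38.9%), against 28.5% of all genes, and 9 were lower (25%), against 28.5% of all genes. The 3 values of one group lay wholly outside those of the other for 26 members (72.2%), against 63.3% of all genes. At least 1.5-fold changes past the threshold were found for 6 members (16.7%), against 20.1% of all genes. The shares of members called therefore lie near the background of this comparison. The median log2 fold change was 0.02 for the members and -0.005 for all genes tested, and the median size of change, whichever way, was 0.27 for the members and 0.29 for all genes. Changes within the list ran from -1.405 for Eno2 to 1.01 for Pfkfb3, on either side of the near-zero median. The groups for transport, phosphofructokinase-1, PFKFB, aldolase with triose isomerase, lower glycolysis and lactate each held genes that rose and genes that fell.

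**Figure D1:**
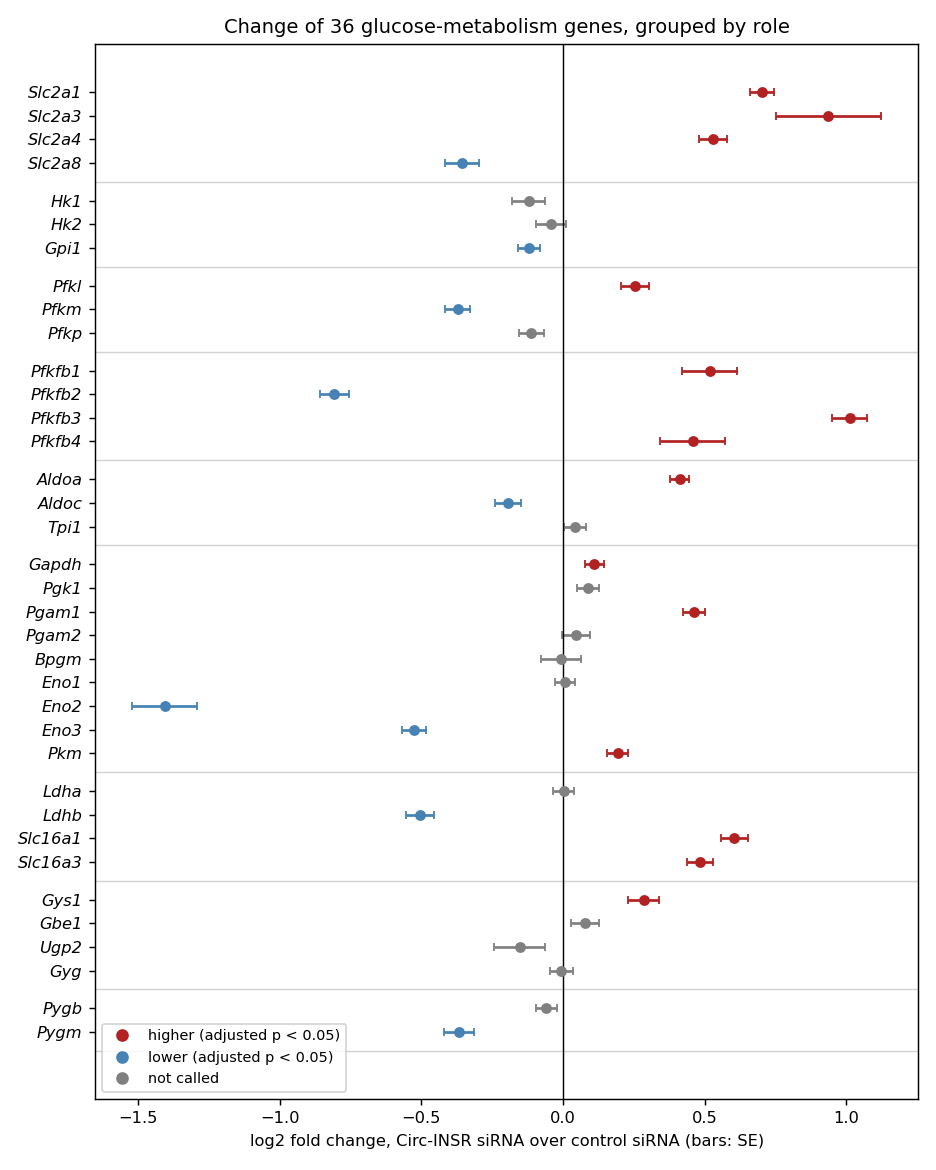
Log2 fold change (Circ-INSR siRNA over control siRNA) of the 36 tested genes with its standard error, in the order of the pathway from uptake to glycogen breakdown; red genes were higher and blue genes lower at an adjusted p below 0.05, and grey genes were not called. Red and blue genes stand side by side among the transporters, the phosphofructokinases, the PFKFB genes and the aldolases, with Eno2 lowest at -1.405 and Pfkfb3 highest at 1.01.

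Total counts per library lay between 68468620 and 77037474 for Circ-INSR siRNA and between 60024750 and 62523602 for control siRNA, a ratio of means of 1.19 (exact two-sided permutation test, p = 0.1, the lowest value possible with 3 libraries a side). Insr, the host gene, had 89.2, 89.2 and 89.2 CPM in Circ-INSR siRNA libraries, against 129, 128 and 104 CPM in control libraries (log2 fold change -0.43, SE 0.07, adjusted p = 0.0003935). Control replicate 3 was the most distant library of its group, with a median absolute log2 difference of 0.145 from control replicate 1 and 0.12 from control replicate 2, against 0.0914 between control replicates 1 and 2 and 0.0719 to 0.0761 within the Circ-INSR siRNA group. For the members these medians were 0.0686 to 0.0744 within the control group and 0.0371 to 0.0449 within the Circ-INSR siRNA group. Without control replicate 3, 16 members were higher and 12 lower, since Pgk1 and Gbe1 were then called higher and Hk1, Pfkp and Pygb lower. Over all genes tested, 5150 were then higher and 5064 lower, against 4750 and 4745 with all libraries. The 12 atrial cardiomyocyte markers were all above the count filter, with sums of 7345 to 7456 CPM in Circ-INSR siRNA libraries and 6702 to 7031 CPM in control libraries, although Nppa was at 16.4 ± 0.925 CPM in Circ-INSR siRNA libraries and 16.6 ± 0.357 CPM in control libraries and Sln at 0.892 ± 0.111 CPM in Circ-INSR siRNA libraries and 0.908 ± 0.115 CPM in control libraries, both low for atrial genes. The atrial markers moved both ways, with 5 called higher (Actc1, Myl4, Nr2f2, Myh6 and Nppb, log2 fold changes 0.29 to 0.87) and 4 called lower (Tnnt2, Actn2, Myl7 and Tbx5, -0.73 to -0.15). Other marker lists also differed in sum between the groups. The 4 smooth muscle genes, which immature or cultured heart muscle cells also express, summed to 6424 to 6656 CPM in Circ-INSR siRNA libraries and 3992 to 4113 CPM in control libraries. The 5 endothelial markers summed to 82.6 to 86.4 CPM in Circ-INSR siRNA libraries and 27.2 to 30.7 CPM in control libraries, almost wholly from Kdr and Tek, while Cdh5 and Vwf were under 0.1 CPM on average in both groups. The 6 fibroblast markers summed to 113 to 126.5 CPM in Circ-INSR siRNA libraries and 159 to 178 CPM in control libraries, almost wholly from Col1a1, which fell (log2 fold change -0.50), while Col1a2 rose at a trace level (1.67, adjusted p = 0.000522), Pdgfra was not called (0.64) and Tcf21 was at 0 in all libraries. The 4 leukocyte markers summed to 3.33 to 3.55 CPM in Circ-INSR siRNA libraries and 4.94 to 5.59 CPM in control libraries, mostly from Cd68, with Adgre1 at 0 in all libraries. The part of these differences in the results on glucose genes was not tested, and in bulk RNA fewer cells of a kind and less RNA per cell cannot be told apart.

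The summed level of the 4 glucose transporter messages was 212.6 ± 4.40 CPM in Circ-INSR siRNA libraries and 145.4 ± 3.78 CPM in control libraries (SD, n = 3 each), a ratio of 1.46 with no overlap between groups. All 4 changed, against 57.0% of all genes, and 3 of them rose, against 28.5% of all genes. Slc2a1 (ENSMUSG00000028645, chr4:119108711-119137983) encodes GLUT1, which supplies basal glucose uptake and dominates in fetal and proliferating heart cells. Its level was 148, 151 and 154.5 CPM in Circ-INSR siRNA libraries, against 95.65, 92.1 and 90.9 CPM in control libraries. Every Circ-INSR siRNA library lay far above every control (log2 fold change 0.70, SE 0.04, adjusted p = 1.06e-07). Slc2a4 encodes GLUT4, the insulin-responsive transporter of adult heart muscle, and had 40.5, 42.9 and 43.05 CPM in Circ-INSR siRNA libraries, against 29.45, 28.35 and 29.8 CPM in control libraries. Its groups did not overlap either (log2 fold change 0.53, SE 0.05, adjusted p = 2.67e-06). Slc2a3, for the high-affinity transporter GLUT3, was scarce, with 2.26, 1.855 and 2.09 CPM in Circ-INSR siRNA libraries, against 1.04, 0.824 and 1.37 CPM in control libraries. Even so its groups were separate, though control replicate 3 was the highest of the controls (log2 fold change 0.94, SE 0.19, adjusted p = 0.00109). Slc2a8 encodes GLUT8, a transporter held mainly on internal membranes, and was the only one of the 4 that fell. It had 17.65, 17.3 and 17.1 CPM in Circ-INSR siRNA libraries, against 23.4, 20.8 and 22.4 CPM in control libraries. All Circ-INSR siRNA libraries were lower than all controls (log2 fold change -0.36, SE 0.06, adjusted p = 0.000311).

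Summed levels in this report are plain CPM, with no division by length. Shares of genes within a family were taken after division by exonic length. On that scale Slc2a1 supplied 70.8 ± 0.223% of the transporter messages in Circ-INSR siRNA libraries and 63.1 ± 0.915% in control libraries. Slc2a4 kept a near-equal share, with 19.9 ± 0.313% in Circ-INSR siRNA libraries and 20.0 ± 0.507% in control libraries. The share of Slc2a8 was 8.88 ± 0.325% in Circ-INSR siRNA libraries and 16.5 ± 0.579% in control libraries, so Slc2a8 lost about the share that Slc2a1 gained.

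The first enzymes of glycolysis moved little. Hk1 and Hk2 encode hexokinases 1 and 2, which trap glucose by phosphorylating it and bind to mitochondria. Hk1 had 238, 232 and 224.5 CPM in Circ-INSR siRNA libraries, against 272.5, 254 and 229 CPM in control libraries. Its groups overlapped, since control replicate 3 lay among the Circ-INSR siRNA libraries, and it did not pass the test (log2 fold change -0.12, SE 0.06, adjusted p = 0.1005). Under 4 of 17 alternative settings Hk1 was called lower. Hk2 had 166, 159 and 156 CPM in Circ-INSR siRNA libraries, against 177, 161.5 and 157 CPM in control libraries, and again the groups overlapped (log2 fold change -0.04, SE 0.05, adjusted p = 0.502). Per exonic length Hk1 held a share of 50.3 ± 0.285% in Circ-INSR siRNA libraries and 51.6 ± 0.976% in control libraries, but with the longest basic coding transcript as the length its share was 65.1% in Circ-INSR siRNA libraries and 66.2% in control libraries, so the balance of the pair depends on the length used. Gpi1, for the isomerase that turns glucose 6-phosphate into fructose 6-phosphate, had 953.5, 954 and 954 CPM in Circ-INSR siRNA libraries, against 1083, 1026 and 999.7 CPM in control libraries. Every Circ-INSR siRNA library lay under every control, by a small margin (log2 fold change -0.12, SE 0.04, adjusted p = 0.0210), but the call was lost when any 1 Circ-INSR siRNA library or control replicate 1 was left out, with log2 fold changes between -0.12 and -0.09.

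Phosphofructokinase-1, which commits fructose 6-phosphate to glycolysis, has muscle, liver and platelet subunits that combine into tetramers, and the 3 genes moved differently. The muscle subunit gene Pfkm had 156, 156 and 157 CPM in Circ-INSR siRNA libraries, against 209.8, 203 and 195 CPM in control libraries. All Circ-INSR siRNA libraries were lower, and they agreed closely with each other (log2 fold change -0.37, SE 0.04, adjusted p = 1.59e-05). The liver subunit gene Pfkl moved the other way, with 84.1, 83.3 and 87.9 CPM in Circ-INSR siRNA libraries, against 76.0, 69.7 and 68.3 CPM in control libraries. Its groups were separate (log2 fold change 0.25, SE 0.05, adjusted p = 0.00108). Pfkp, the platelet subunit gene and the one with the most counts, had 392, 397 and 380 CPM in Circ-INSR siRNA libraries, against 432, 433 and 399 CPM in control libraries. Although the groups did not overlap, it lay just outside the threshold (log2 fold change -0.11, SE 0.045, adjusted p = 0.05045). Under 9 of 17 alternative settings it was called lower. Its exons share 748 bases with Pitrm1 on the opposite strand, so its counts are uncertain where strand was not used. The summed level of the 3 genes was 631.2 ± 5.81 CPM in Circ-INSR siRNA libraries and 695.2 ± 29.3 CPM in control libraries, a ratio of 0.908. Within the family, per exonic length, the share of Pfkm was 52.8 ± 0.295% in Circ-INSR siRNA libraries and 59.0 ± 0.365% in control libraries. That of Pfkl was 14.4 ± 0.423% in Circ-INSR siRNA libraries and 10.4 ± 0.295% in control libraries. The order of the subunits rests on the length used, since with the longest basic coding transcript in place of all exons Pfkp led with 54.9% in Circ-INSR siRNA libraries and 53.2% in control libraries, and Pfkm held 31.8% in Circ-INSR siRNA libraries and 36.8% in control libraries.

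The largest shifts in isoenzyme share, -27.4 percentage points for Pfkfb2 and 21.1 for Pfkfb3, were in the PFKFB family, the bifunctional enzymes that make and remove fructose 2,6-bisphosphate. Pfkfb3 (ENSMUSG00000026773, chr2:11471433-11554077) encodes the isoform with by far the highest kinase over phosphatase activity and is induced by hypoxia and growth signals in many cells. It had 32.8, 33.6 and 34.1 CPM in Circ-INSR siRNA libraries, against 17.5, 17.15 and 15.2 CPM in control libraries. The groups were far apart, with a fitted ratio of 2.015, the largest rise among the members (log2 fold change 1.01, SE 0.06, adjusted p = 9.76e-08). Pfkfb2 (ENSMUSG00000026409, chr1:130689182-130729253) encodes the heart isoform, which protein kinases of the insulin pathway phosphorylate and activate. It had 26.9, 29.45 and 28.2 CPM in Circ-INSR siRNA libraries, against 48.6, 51.4 and 47.9 CPM in control libraries. This was a clear fall with separate groups (log2 fold change -0.81, SE 0.05, adjusted p = 1.51e-07), and 154 bases of its exons overlap Yod1 on the other strand. Pfkfb1, known as the liver and muscle isoform, had 6.26, 5.75 and 6.05 CPM in Circ-INSR siRNA libraries, against 4.61, 3.76 and 4.25 CPM in control libraries. All Circ-INSR siRNA libraries were higher at this low level (log2 fold change 0.52, SE 0.10, adjusted p = 0.000766), although 123 of its exonic bases overlap the far more abundant Apex2 on the other strand. Pfkfb4, known best from testis and tumours, was lower still, with 3.57, 4.16 and 3.95 CPM in Circ-INSR siRNA libraries, against 3.12, 2.84 and 2.55 CPM in control libraries. Its groups were separate as well (log2 fold change 0.46, SE 0.115, adjusted p = 0.00500).

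The opposite moves of Pfkfb3 and Pfkfb2 nearly cancelled in the sum, which was 71.57 ± 1.81 CPM in Circ-INSR siRNA libraries and 73 ± 2.72 CPM in control libraries, a ratio of 0.98. Per exonic length the share of Pfkfb3 was 41.8 ± 0.47% in Circ-INSR siRNA libraries and 20.7 ± 0.864% in control libraries. The share of Pfkfb2 was 36.6 ± 0.907% in Circ-INSR siRNA libraries and 64.0 ± 1.72% in control libraries. The most abundant isoform message thus was Pfkfb3 in the Circ-INSR siRNA libraries and Pfkfb2 in the control libraries.

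**Figure D2:**
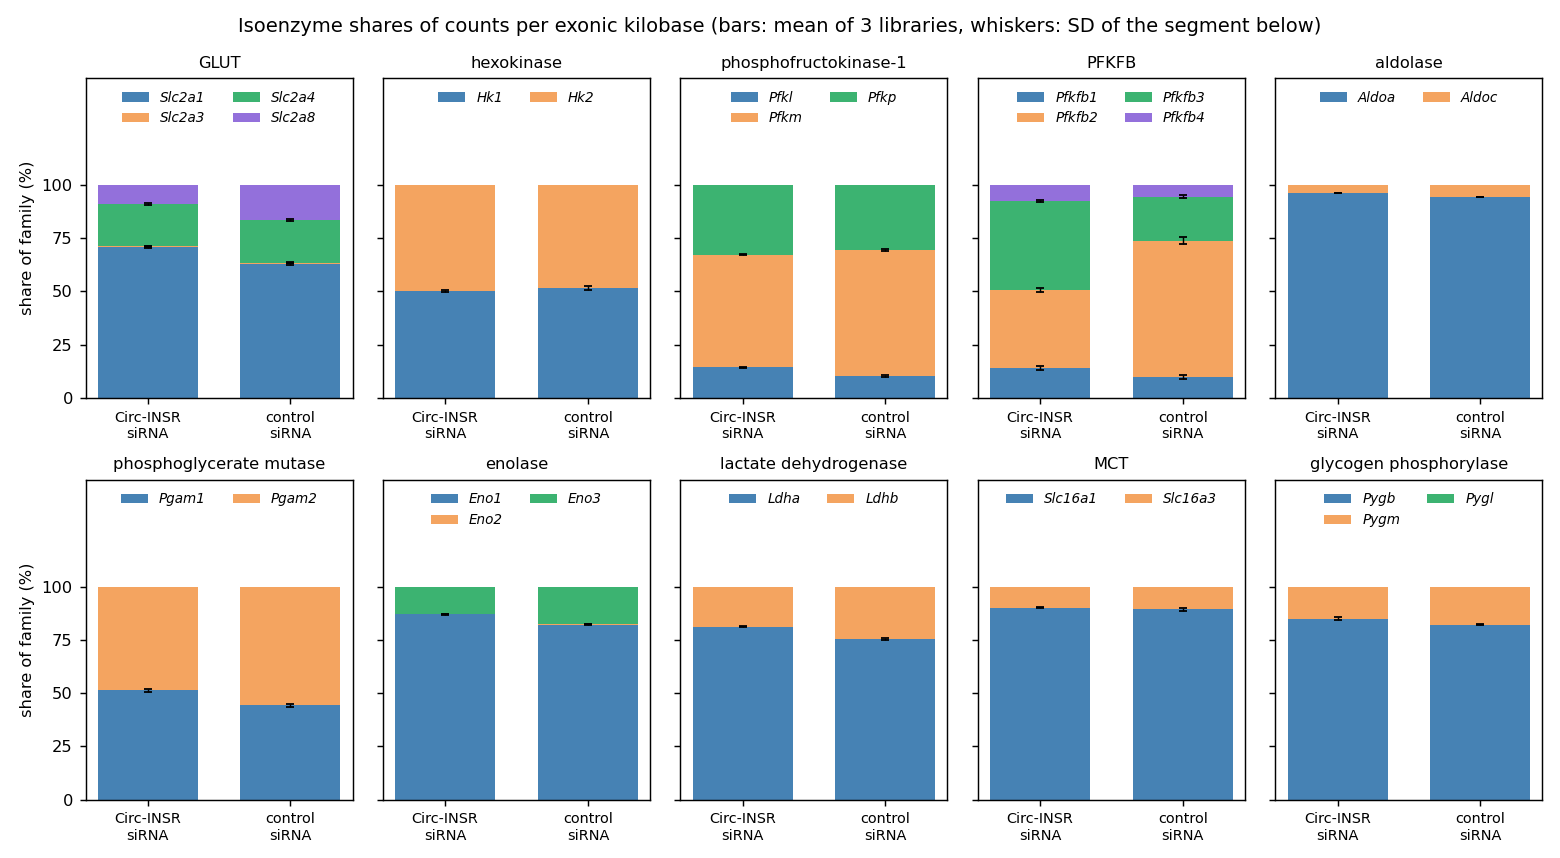
Share of each isoenzyme in its family's counts per exonic kilobase (per cent), as stacked bars for Circ-INSR siRNA and control siRNA libraries (mean of 3, whiskers are the SD of the segment below them). The PFKFB panel changes most, with Pfkfb3 at 41.8% in Circ-INSR siRNA and 20.7% in control libraries and Pfkfb2 at 36.6% in Circ-INSR siRNA and 64.0% in control libraries, while hexokinase and MCT shares differ by at most 1.32 percentage points.

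Aldolase splits fructose 1,6-bisphosphate into 2 triose phosphates, and its main gene here was the most abundant of all members per exonic length, at 564 CPM per kilobase in Circ-INSR siRNA libraries and 424 in control libraries. This rank uses all exons as the length and leaves out counts in near-identical copies of other members, such as Pgk1. Aldoa had 1661, 1634 and 1632 CPM in Circ-INSR siRNA libraries, against 1243, 1209 and 1250 CPM in control libraries. All Circ-INSR siRNA libraries were higher (log2 fold change 0.41, SE 0.03, adjusted p = 1.04e-06). Aldoc, the brain isoform, moved the other way, with 68.8, 70.0 and 74.0 CPM in Circ-INSR siRNA libraries, against 81.9, 79.85 and 81.7 CPM in control libraries. Its groups were separate, with a small fall (log2 fold change -0.19, SE 0.045, adjusted p = 0.00287). The share of Aldoa in aldolase messages was 96.3 ± 0.165% in Circ-INSR siRNA libraries and 94.5 ± 0.0277% in control libraries. Tpi1, for the isomerase that interconverts the triose phosphates, had 469, 453.5 and 459 CPM in Circ-INSR siRNA libraries, against 454, 434 and 455 CPM in control libraries. Its groups overlapped (log2 fold change 0.04, SE 0.04, adjusted p = 0.388), although it was called higher once a trend fitted on length and GC content was taken out (0.16).

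In the lower part of glycolysis, from glyceraldehyde 3-phosphate to pyruvate, 3 of 9 genes rose (33.3%) and 2 fell (22.2%), against 28.5% of all genes in each direction, and 4 were not called. Gapdh, the NADH-forming dehydrogenase often used as a reference gene, had 1210, 1208 and 1230 CPM in Circ-INSR siRNA libraries, against 1154, 1100 and 1124 CPM in control libraries. The Circ-INSR siRNA libraries were all slightly higher (log2 fold change 0.11, SE 0.035, adjusted p = 0.0188), a call that was lost with total counts or upper quartile scaling, at log2 fold changes of 0.07 and 0.09, and without Circ-INSR siRNA replicate 1 (0.12), Circ-INSR siRNA replicate 3 (0.11) or control replicate 2 (0.09). Pgk1, for the first ATP-forming enzyme, had 729, 720.5 and 738 CPM in Circ-INSR siRNA libraries, against 676, 668 and 712 CPM in control libraries. The groups did not overlap, yet it missed the threshold (log2 fold change 0.09, SE 0.04, adjusted p = 0.0707). It passed with the length and GC trend removed (0.15), with a replicate block (0.09) and without control replicate 3 (0.12). Pgam1, the ubiquitous phosphoglycerate mutase, had 622, 604.5 and 617 CPM in Circ-INSR siRNA libraries, against 444.5, 434 and 459.7 CPM in control libraries. This was the largest rise in the lower part of the pathway (log2 fold change 0.46, SE 0.04, adjusted p = 1.34e-06). Pgam2, the muscle mutase and a marker of differentiated muscle, had 257, 235 and 246 CPM in Circ-INSR siRNA libraries, against 245, 224 and 247 CPM in control libraries. Its groups overlapped (log2 fold change 0.05, SE 0.05, adjusted p = 0.472), and it was called higher only with the length and GC trend removed (0.20). The share of Pgam1 among the pair was 51.4 ± 0.723% in Circ-INSR siRNA libraries and 44.2 ± 0.839% in control libraries. With counts in near-identical copies of Pgam1 added, its share was 62.9% in Circ-INSR siRNA libraries and 55.9% in control libraries. Which of the pair led in control libraries thus depends on whether copies are added. Bpgm, which makes 2,3-bisphosphoglycerate in red cells of mammals, was low, with 13.8, 15.5 and 15.5 CPM in Circ-INSR siRNA libraries, against 15.5, 14.0 and 15.6 CPM in control libraries, and its groups overlapped (log2 fold change -0.01, SE 0.07, adjusted p = 0.941).

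The 3 enolase genes, which turn 2-phosphoglycerate into phosphoenolpyruvate, changed to very different degrees. Eno1, the ubiquitous alpha enolase, had 1386, 1351 and 1365 CPM in Circ-INSR siRNA libraries, against 1391, 1328 and 1365 CPM in control libraries. The values interleaved (log2 fold change 0.01, SE 0.035, adjusted p = 0.897), and it was called higher with the length and GC trend removed (0.13). Eno3, the muscle beta enolase that replaces alpha enolase as heart muscle matures, had 65.1, 63.75 and 66.6 CPM in Circ-INSR siRNA libraries, against 93.75, 91.9 and 95.9 CPM in control libraries. All Circ-INSR siRNA libraries lay well under the controls (log2 fold change -0.53, SE 0.04, adjusted p = 9.25e-07). Eno2 (ENSMUSG00000004267, chr6:124760053-124769673), the neuronal gamma enolase, was scarce, with 2.05, 2.5 and 1.92 CPM in Circ-INSR siRNA libraries, against 5.87, 5.69 and 5.62 CPM in control libraries. It showed the largest change of any member in either direction (log2 fold change -1.405, SE 0.11, adjusted p = 9.40e-07), but its share of enolase messages was only 0.157 ± 0.0239% in Circ-INSR siRNA libraries and 0.395 ± 0.00859% in control libraries. The summed enolase level, mostly Eno1, was 1434 ± 17.8 CPM in Circ-INSR siRNA libraries and 1461 ± 33.1 CPM in control libraries. Pkm, for the pyruvate kinase that ends glycolysis, had 869.6, 852 and 874 CPM in Circ-INSR siRNA libraries, against 778.5, 753 and 739 CPM in control libraries. Its groups were separate (log2 fold change 0.19, SE 0.04, adjusted p = 0.000861), and gene counts cannot separate its M1 and M2 splice forms.

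Several of these abundant genes have near-identical copies elsewhere in the genome, among which reads can be split. Copies with at least 90% identity over at least 50% of their length held counts equal to 60.1% of those of Pgam1 in Circ-INSR siRNA libraries and 59.6% in control libraries. For Pgk1 these figures were 56.5% in Circ-INSR siRNA libraries and 55.9% in control libraries. The 2 copies of Eno1, Eno1b and Gm4735, held 27.5% in Circ-INSR siRNA libraries and 26.8% in control libraries. Of 88 copies of Gapdh, 83 had counts, together 18.1% of those of Gapdh in Circ-INSR siRNA libraries and 17.2% in control libraries. Adding the copies hardly moved the log2 ratio of the group means, which became 0.47 for Pgam1 (0.46 without copies), 0.09 for Pgk1 (0.09), 0.01 for Eno1 (0.01) and 0.12 for Gapdh (0.11). The absolute levels of these 4 genes are therefore uncertain. Since the multi-mapping rule is unknown, counts in copies may be reads split from the gene or the same reads counted again.

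At the branch to lactate, the carriers rose and the heart-type dehydrogenase fell. Slc16a1 (ENSMUSG00000032902, chr3:104638668-104658462) encodes MCT1, which carries lactate and pyruvate with protons and serves lactate uptake in heart muscle. It had 607, 596 and 602 CPM in Circ-INSR siRNA libraries, against 372, 395 and 420.1 CPM in control libraries. Every Circ-INSR siRNA library lay far above every control (log2 fold change 0.605, SE 0.05, adjusted p = 6.83e-07). Slc16a3 encodes MCT4, the low-affinity carrier of glycolytic cells that export lactate, and had 79.6, 77.5 and 81.3 CPM in Circ-INSR siRNA libraries, against 59, 54.7 and 56.9 CPM in control libraries. It rose as well, and its groups were separate (log2 fold change 0.48, SE 0.05, adjusted p = 3.25e-06). Together they summed to 680.9 ± 6.44 CPM in Circ-INSR siRNA libraries and 452.5 ± 23.1 CPM in control libraries, a ratio of 1.5. Slc16a1 made up most of this, with a share per exonic length of 90.1 ± 0.179% in Circ-INSR siRNA libraries and 89.3 ± 0.836% in control libraries.

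Ldhb encodes the H subunit of lactate dehydrogenase, which predominates in oxidative heart muscle. Its level was 116, 109 and 113.5 CPM in Circ-INSR siRNA libraries, against 161, 151.5 and 168 CPM in control libraries. No Circ-INSR siRNA library reached the lowest control (log2 fold change -0.50, SE 0.05, adjusted p = 4.56e-06). Ldha, for the M subunit that predominates in glycolytic muscle, had 1044, 1014 and 1041 CPM in Circ-INSR siRNA libraries, against 1027, 1006 and 1059 CPM in control libraries. Its values interleaved (log2 fold change 0.00, SE 0.04, adjusted p = 0.953), and it was called higher with the length and GC trend removed (0.08). The share of Ldha in lactate dehydrogenase messages per exonic length was 81.3 ± 0.279% in Circ-INSR siRNA libraries and 75.3 ± 0.504% in control libraries.

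**Figure D3:**
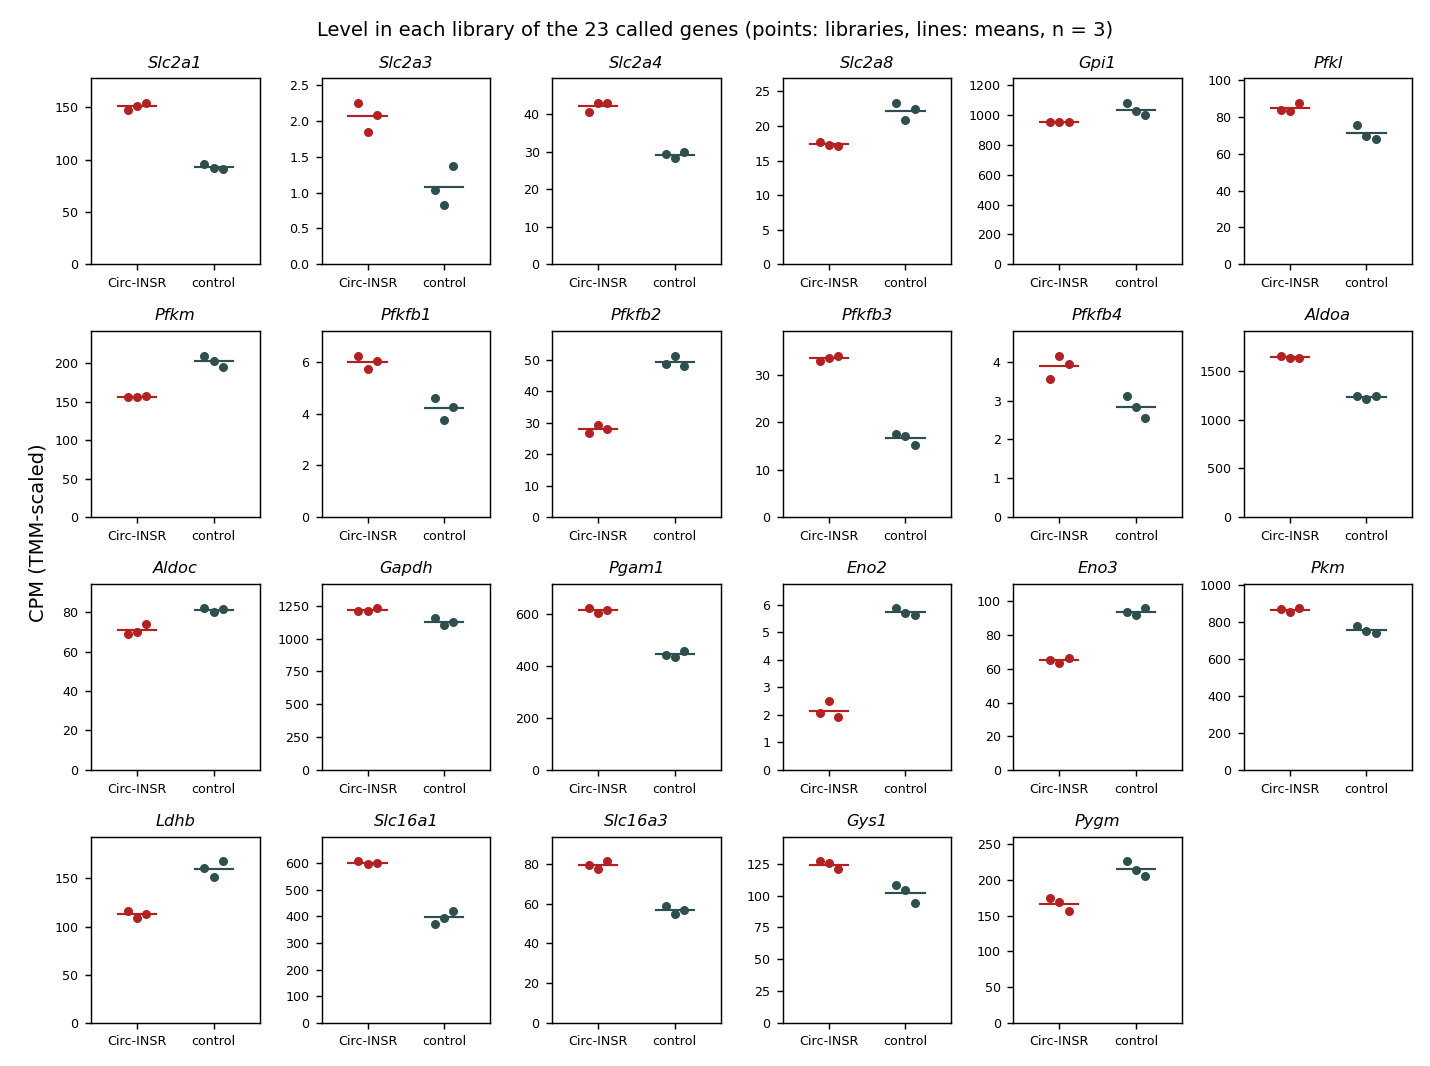
Level in CPM (axis from 0) of each of the 23 genes past the threshold, with 1 point per library and a line at the group mean, Circ-INSR siRNA at the left and control siRNA at the right of each panel. In every panel the 3 points of one group lie wholly above those of the other, with gaps that range from those of Gapdh and Gpi1, where the groups nearly meet, to those of Pfkfb3 and Eno2.

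Of the genes for making glycogen, 1 of 4 rose (25%), against 28.5% of all genes, and none fell. Gys1, the muscle glycogen synthase, had 127, 125 and 121 CPM in Circ-INSR siRNA libraries, against 108, 104 and 94.1 CPM in control libraries. Its groups did not overlap, and control replicate 3 was the lowest library (log2 fold change 0.285, SE 0.05, adjusted p = 0.000812). Gys1 shares 310 exonic bases with Ruvbl2 on the opposite strand, so the rise of Gys1 is uncertain where strand was not used. Ruvbl2 also had more counts after Circ-INSR siRNA, 29460 over the 3 libraries against 20390 over the 3 controls. These counts are not scaled, and mean library totals differed in the same direction by a ratio of 1.19. Gyg, glycogenin, which primes the chain, had 346, 357 and 348 CPM in Circ-INSR siRNA libraries, against 340, 355 and 360 CPM in control libraries. Its values interleaved (log2 fold change -0.01, SE 0.04, adjusted p = 0.916). Gbe1, the branching enzyme, had 125, 129 and 127 CPM in Circ-INSR siRNA libraries, against 112.5, 124 and 125 CPM in control libraries. The Circ-INSR siRNA libraries lay just above the controls, with no call (log2 fold change 0.08, SE 0.05, adjusted p = 0.202). Ugp2, which makes the glucose donor UDP-glucose, varied widely within the controls. It had 81.2, 85.2 and 88.6 CPM in Circ-INSR siRNA libraries, against 80.4, 96.7 and 106.5 CPM in control libraries. It was not called (log2 fold change -0.15, SE 0.09, adjusted p = 0.175). However, Ugp2 was called lower without control replicate 1 (-0.26), with the length and GC trend removed (-0.18) and with a replicate block (-0.15).

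Glycogen breakdown was represented by 3 phosphorylase genes. Pygb, the brain isoform, which the fetal heart also makes, was the main one, with a share per exonic length of 85.0 ± 0.811% in Circ-INSR siRNA libraries and 82.05 ± 0.262% in control libraries. It had 1414, 1391 and 1427 CPM in Circ-INSR siRNA libraries, against 1515, 1477 and 1418 CPM in control libraries. Its groups overlapped through control replicate 3 (log2 fold change -0.06, SE 0.04, adjusted p = 0.1935). Pygm, the muscle isoform, had 175, 169 and 157 CPM in Circ-INSR siRNA libraries, against 226, 213.5 and 206 CPM in control libraries. Every Circ-INSR siRNA library was lower (log2 fold change -0.37, SE 0.05, adjusted p = 0.000103). Pygl, the liver isoform, was close to absent, with 9, 6 and 8 counts in Circ-INSR siRNA libraries and 4, 0 and 4 counts in control libraries. Counts this low are near the limit of these libraries, and no test was made of it.

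Seen across families, genes known as muscle or heart isoforms did not move as one. Pfkm, Pfkfb2, Eno3, Ldhb and Pygm fell, and Slc2a4, Aldoa, Gys1 and Pfkfb1 rose. Pgam2 (log2 fold change 0.05) and Ldha (0.00) were not called. Of the ubiquitous, liver or fetal isoforms listed next, some rose and the others were not called. Slc2a1, Pgam1, Pfkl and Pfkfb3 rose, and Eno1, Hk1 and Pygb were not called, with log2 fold changes from -0.12 for Hk1 to 0.01 for Eno1. Not all members were placed, and Hk2 and Pfkp (not called) and Aldoc and Eno2 (lower) are among those left out. These groupings of isoforms were made after the values were seen and carry no test.

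All 37 genes together summed to 13640 ± 105 CPM in Circ-INSR siRNA libraries and 12860 ± 191 CPM in control libraries, a ratio of 1.06. Beside the transporters and the lactate carriers, aldolase (1.3) and phosphoglycerate mutase (1.26) had summed ratios above 1, while hexokinase (0.939), phosphofructokinase-1 (0.908), enolase (0.982), lactate dehydrogenase (0.962) and glycogen phosphorylase (0.936) had ratios below 1. No test was made of these sums. Per exonic kilobase the members spanned from Aldoa to Pygl, at 0.0157 CPM per kilobase in Circ-INSR siRNA libraries and 0.006275 in control libraries. Aldoa, Pgk1, Ldha, Pgam1, Gapdh, Pygb, Pgam2, Eno1, Pkm, Tpi1, Gyg and Gpi1 stood above 100 CPM per kilobase in both groups, whereas the PFKFB genes, Slc2a3, Slc2a8, Bpgm and Eno2 stayed below 10. These levels depend on all exons being used as the length, and they leave out counts in copies.

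**Figure D4:**
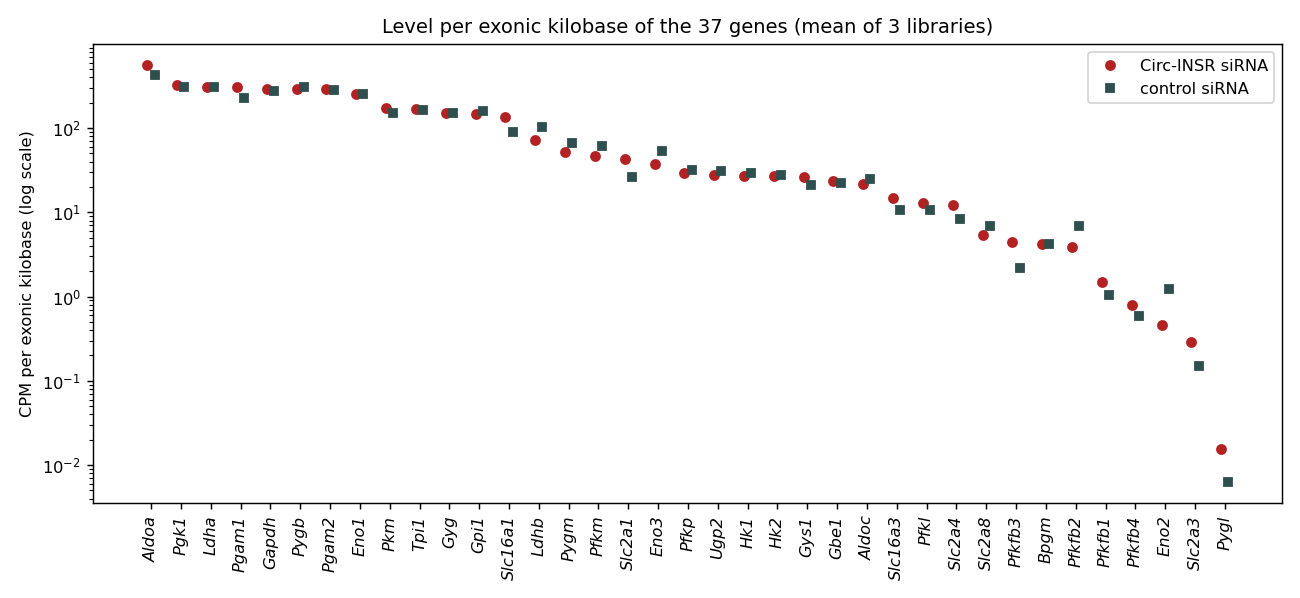
Mean level per exonic kilobase (CPM per kilobase, log axis) of the 37 genes in Circ-INSR siRNA libraries (circles) and control siRNA libraries (squares), ordered by the Circ-INSR siRNA level. Counts in near-identical copies are left out. Aldoa is highest, at 564 in Circ-INSR siRNA and 424 in control libraries, Pygl is lowest, at 0.0157 in Circ-INSR siRNA and 0.006275 in control libraries, and for most genes the 2 symbols nearly coincide beside this range.

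The genes around these pathways were read from 10 further lists with 140 genes, of which 116 were tested. Of these 31 were higher (26.7%), against 28.5% of all genes, and 44 were lower (37.9%), against 28.5% of all genes. Among 7 other sugar transporters 1 rose (14.3%) and 4 fell (57.1%), against 28.5% of all genes in each direction, with a median log2 fold change of -0.52. Slc2a9, which carries urate, fell (log2 fold change -0.92, SE 0.135, adjusted p = 0.000108), and so did Slc2a6 (log2 fold change -0.46, but not called without control replicate 2, at -0.37, or with the length and GC trend removed, at -0.32), while Slc2a10 rose at only 20 to 33 counts per library in Circ-INSR siRNA libraries and 4 to 10 in control libraries. Of 5 less usual glycolytic isoenzymes tested, 2 rose (40%) and 3 fell (60%), against 28.5% of all genes in each direction. Hkdc1, a hexokinase-like gene, was at 1.12 ± 0.290 CPM in Circ-INSR siRNA libraries and 2.42 ± 0.0502 CPM in control libraries and Ldhd, the D-lactate dehydrogenase of mitochondria, at 0.888 ± 0.2345 CPM in Circ-INSR siRNA libraries and 2.22 ± 0.0586 CPM in control libraries, and both fell.

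Mpc1 encodes a subunit of the carrier that takes pyruvate into mitochondria. It had 75.3, 67.6 and 75.4 CPM in Circ-INSR siRNA libraries, against 106.5, 115 and 130.1 CPM in control libraries, and all Circ-INSR siRNA libraries were lower (log2 fold change -0.69, SE 0.07, adjusted p = 9.10e-06). Mpc2, another subunit gene of that carrier, was at 62.7 CPM on average in Circ-INSR siRNA libraries and 61.3 CPM in control libraries. It was not called (log2 fold change 0.03, SE 0.06, adjusted p = 0.674). In the list of lactate and pyruvate partners 2 of 4 fell (50%), against 28.5% of all genes, and none rose. The second to fall was Slc5a8, a sodium-coupled lactate carrier near 1 CPM. Pcx, pyruvate carboxylase, which feeds oxaloacetate to the citric acid cycle, had 119, 111 and 105 CPM in Circ-INSR siRNA libraries, against 180.1, 169 and 153 CPM in control libraries (log2 fold change -0.59, SE 0.06, adjusted p = 1.02e-05). Of the 4 gluconeogenic genes tested 1 rose (25%) and 2 fell (50%), against 28.5% of all genes in each direction. Pck2 was at 0.15 on the log2 scale and lost its call with total counts scaling (0.11) and without Circ-INSR siRNA replicate 1 (0.14). Slc37a4 was at -0.15 and lost its call with the length and GC trend removed (-0.02) and without Circ-INSR siRNA replicate 1 (-0.14).

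Among 27 regulators and partners of glycogen enzymes 7 rose (25.9%) and 8 fell (29.6%), against 28.5% of all genes in each direction. Ppp1r3b, which tethers protein phosphatase 1 to glycogen, was at 68.7 ± 1.4 CPM in Circ-INSR siRNA libraries and 101 ± 1.815 CPM in control libraries (log2 fold change -0.55, SE 0.04, adjusted p = 5.83e-07). Gaa, the lysosomal glycogen hydrolase, was at 146 ± 2.33 CPM in Circ-INSR siRNA libraries and 226 ± 15.7 CPM in control libraries (log2 fold change -0.63, SE 0.05, adjusted p = 1.16e-06). Calm3 encodes calmodulin, which among many roles is a subunit of phosphorylase kinase, and was at 238.5 ± 8.56 CPM in Circ-INSR siRNA libraries and 150.5 ± 3.51 CPM in control libraries (log2 fold change 0.66, SE 0.04, adjusted p = 1.89e-07).

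Of 11 pentose phosphate genes 2 rose (18.2%) and 5 fell (45.5%), against 28.5% of all genes in each direction. Pgls, the lactonase of the oxidative branch, fell by 0.66 and Prps2, which makes phosphoribosyl pyrophosphate, fell by 0.54 on the log2 scale, while Rpia, ribose 5-phosphate isomerase, rose by 0.45. The hexosamine and polyol list had 3 of 11 higher (27.3%) and 4 lower (36.4%), against 28.5% of all genes in each direction. Gfpt2, an isoform of the enzyme that opens the hexosamine pathway, had 35.7, 35.25 and 33.8 CPM in Circ-INSR siRNA libraries, against 76.3, 73.55 and 69.8 CPM in control libraries. Its groups were far apart (log2 fold change -1.07, SE 0.05, adjusted p = 1.30e-08). Gfpt1, the other isoform in the list, had more CPM, on average 110.7 in Circ-INSR siRNA libraries and 106.7 in control libraries. It was not called (log2 fold change 0.05, SE 0.04, adjusted p = 0.317). Uap1, which makes UDP-N-acetylglucosamine at the end of the same pathway, rose by 0.62, and Akr1b8, an aldo-keto reductase, fell by 0.53 on the log2 scale.

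The control genes gave mixed calls. Of 8 genes for GLUT4 traffic and transporter control 3 rose (37.5%) and 1 fell (12.5%), against 28.5% of all genes in each direction. Rab10 and Rab8a, small GTPases of GLUT4 vesicle traffic, rose by 0.35 each, and Txnip, a restraint on glucose uptake, fell by 0.17 on the log2 scale. Among 21 transcriptional and energy-sensing genes 8 rose (38.1%) and 5 fell (23.8%), again against 28.5%. Egln3, a prolyl hydroxylase that marks HIF for breakdown and is itself induced by HIF, had 9.14, 10.2 and 9.86 CPM in Circ-INSR siRNA libraries, against 23, 23.4 and 21.8 CPM in control libraries (log2 fold change -1.225, SE 0.065, adjusted p = 3.28e-08). Egln2, a related hydroxylase, rose by 0.57, and Prkab2, a subunit of AMP-activated protein kinase, by 0.54 on the log2 scale. Of 18 HIF target genes outside glycolysis 4 rose (22.2%) and 10 fell (55.6%), against 28.5% of all genes in each direction, with a median log2 fold change of -0.30. Bhlhe40, a transcriptional repressor, was at 53.8 ± 0.0842 CPM in Circ-INSR siRNA libraries and 93.7 ± 5.24 CPM in control libraries. Ddit4, which restrains the kinase mTORC1, was at 24.3 ± 1.21 CPM in Circ-INSR siRNA libraries and 43.6 ± 1.67 CPM in control libraries. Plod2, a collagen lysyl hydroxylase, was at 228 ± 9.57 CPM in Circ-INSR siRNA libraries and 369 ± 15.1 CPM in control libraries, and all 3 fell (log2 fold changes -0.80, -0.85 and -0.69).

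**Figure D5:**
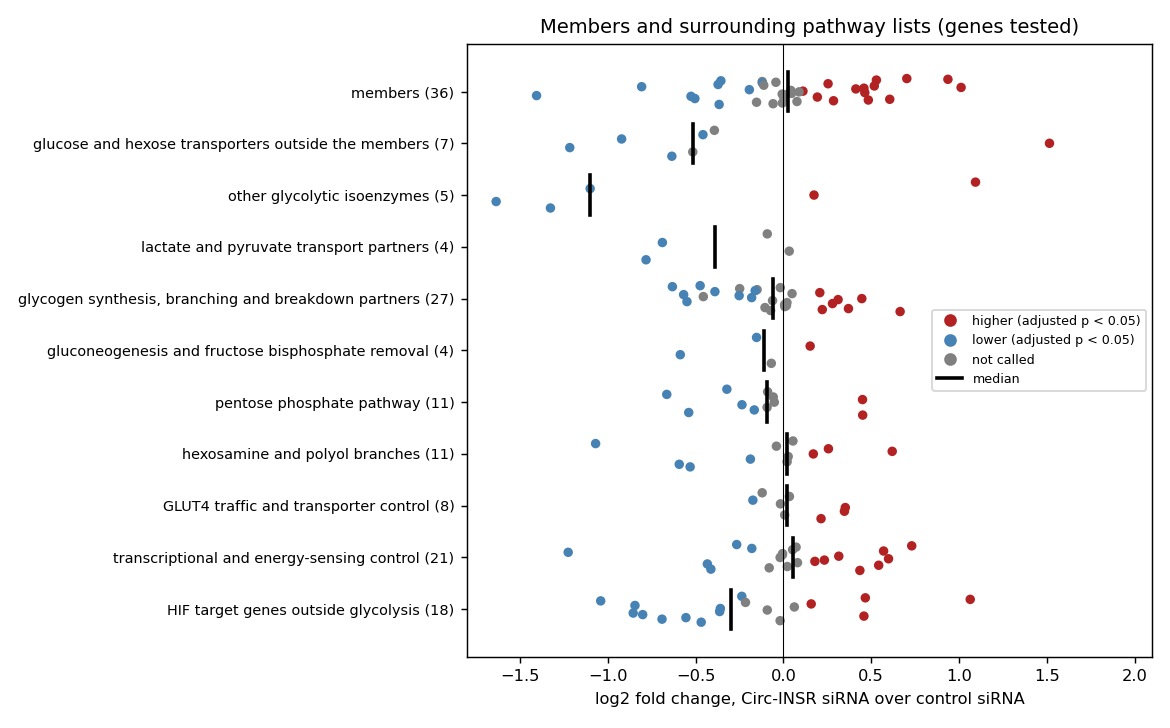
Log2 fold change (Circ-INSR siRNA over control siRNA) of each tested gene, in rows for the glucose-metabolism members and 10 surrounding lists, with the number of genes in brackets and a black bar at the median. Red points were higher and blue points lower at an adjusted p below 0.05; the members lie around a median of 0.02, while HIF targets outside glycolysis lie mostly to the left, with a median of -0.30.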

How the data were processed

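The authors deposited raw counts per Ensembl gene, 1 file per library, not normalized. Tools listed in the submitters' processing notes, whose roles are not stated there, are STAR 2.5.0c, featureCounts 1.6.4, StringTie 1.3.5, Trim Galore, MultiQC 1.7, FastQC 0.11.4 and bcl2fastq, and the build is mm10. Libraries were directional, per the labels' protocols; the annotation release, strand setting and multi-mapping rule are unknown (not given in the sources used here). Values of 2 outnumbered values of 1 in every library, a pattern that counting both mates of a pair would leave. In that case the counts would overstate precision. Whether both mates were counted was not tested. With halved counts 4637 genes were higher and 4650 lower, against 4750 and 4745 in the reported fit. For the members these figures were 14 and 10, against 14 and 9. Symbols and exons came from GENCODE M21 (36308 of 38087 IDs, 95.33%). Counts were fitted with edgeR 4.0.16 in R 4.3.3 (filterByExpr, minimum count 10 and total 15; TMM; robust quasi-likelihood F-test; Benjamini-Hochberg over 16666 genes), steps also tested on simulated data. SE is the log2 fold change over the square root of F. Copies were found with minimap2 2.31-r1302. Alternatives used DESeq2 1.42.0, limma 3.58.1 and mgcv 1.9.3. The main fit did not pair libraries by replicate number, since the labels do not say whether it marks a shared culture or day. The text names all members, Insr, copies, and up to 3 called genes with the smallest adjusted p from each surrounding list; 1 gene that this rule takes is not reported here. Members and lists were chosen with earlier results of these data known.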

Additional observations from a re-analysis of the deposited data

How the results depend on the processing

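Under 17 alternatives (other scalings, filters and tools, halved or thinned counts, removal of a trend on length and GC content, a replicate block, each library left out), 21 of the 23 called members kept their call and direction. The exceptions were Gpi1, lost with the trend removed (-0.06), without any 1 Circ-INSR siRNA library or without control replicate 1 (-0.12 to -0.09), and Gapdh, lost with upper quartile (0.09) and total counts (0.07) scaling and without Circ-INSR siRNA replicate 1 or 3 or control replicate 2 (0.09 to 0.12). Of 13 uncalled members 10 were called under some alternative. With the trend removed these were Tpi1 (0.156), Pgk1 (0.153), Pgam2 (0.197), Eno1 (0.126), Ldha (0.081), Pfkp (-0.147) and Ugp2 (-0.185). Without control replicate 3 they were Hk1, Pfkp, Pgk1, Gbe1 and Pygb. Hk1 was also called with upper quartile (-0.14) and total counts (-0.165) scaling and a replicate block (-0.118). The block also called Pgk1 (0.09) and Ugp2 (-0.146), and total counts Pygb (-0.104). Ugp2 was called without control replicate 1 as well (-0.257). Pfkp was called lower under 9 of the 17 alternatives. With a replicate block 15 members were higher and 12 lower. Over all genes tested 4968 were then higher and 4900 lower, against 4750 and 4745 in the reported fit. Same-numbered libraries deviated together only weakly (correlations 0.024 to 0.074), although each library correlated best with its own number. With the trend removed 19 members were higher and 10 lower, beside 5608 and 4699 of all genes tested. With total counts 13 members were higher and 12 lower, beside 4130 and 5326 of all genes tested. The median member log2 fold change was -0.021 with total counts, 0.050 with no filter, 0.104 with the trend removed and 0.000 to 0.043 with 1 library left out. Over all genes tested the median was -0.049 with total counts and 0.029 with the trend removed, against -0.005 in the reported fit. Uncalled members changed sign as follows. Hk2 was at 0.019 with the trend removed, and Tpi1 at -0.003 with total counts. Bpgm was at 0.001 with no filter, 0.011 thinned and 0.041 with the trend removed. Eno1 was at -0.014 with upper quartile, -0.039 with total counts and -0.006 with a filter at 1 CPM. Ldha was at -0.017, -0.042 and -0.009 in the same order and -0.001 with halved counts. Gyg was at 0.002 with no filter and 0.039 with the trend removed, and Pygb at 0.046 with the trend removed. With 1 library left out these ran from -0.073 to 0.009 for Hk2, -0.057 to 0.049 for Bpgm, -0.013 to 0.022 for Eno1, -0.016 to 0.028 for Ldha and -0.029 to 0.016 for Gyg. The causes were not tested. Added after the data were seen, the length of the longest basic coding transcript gave differences in share of 8.53 percentage points for Slc2a1, -5.07 for Pfkm, 1.18 for Aldoa, 2.54 for Eno1 and 4.57 for Ldha, against 7.61, -6.19, 1.83, 4.91 and 5.94 with all exons, and adding sequence copies gave 4.19 for Eno1. Low counts limit the precision for Pygl, Slc2a3, Eno2 and Pfkfb4.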
